A study of Sus scrofa with 24 samples.

Results

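Jejunal and ileal mucosa of pigs with postnatal growth retardation (PGR) were compared within each animal, for every target gene with an ileal reading of its own. The members were chosen by sample title and growth status, which gave 6 jejunal and 6 ileal samples from 6 PGR pigs, 12 of the 24 samples of the series. The other 12 samples are the same tissues of 6 healthy pigs and serve only as a comparison for the size of the regional difference. All pigs were Duroc × Landrace × Large Yorkshire crossbreds with a common sire line, weaned before the experiment and 42 d old at sampling, and they received no treatment. PGR pigs were picked for a body weight far below that of their age mates, so the group is defined by weight and not by a gene or an agent, and each was matched to a healthy pig of its litter. The tissue was mucosa scraped from the gut wall after an overnight fast, a mixture of epithelium, connective tissue and immune cells, in which fewer cells of a type and less RNA per cell cannot be told apart.

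The small intestine changes along its length. The jejunum carries most of the absorption of sugars, amino acids and fat and holds many of the endocrine cells that answer to nutrients, while the ileum takes up bile acids and vitamin B12 and is rich in lymphoid tissue. Growth factor receptors, gut hormones, serotonin handling, antioxidant enzymes and cytokines can therefore each have a regional pattern of their own.

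Transcripts of 26 target genes were measured by quantitative RT-PCR against β-actin as the reference. TLR4 was left out, since its Ct was the same in both tissues in 12 of 12 pigs, against 1 of 300 gene and pig pairs for the other 25 genes. Ct, the cycle in which a PCR product becomes detectable, was 17.85 to 32.11 in the jejunal and 19.14 to 31.78 in the ileal samples of PGR pigs. Levels are given per 1000 of β-actin, and differences are log2 of the jejunal over the ileal level in the same pig, so that a positive value means more mRNA in the jejunal mucosa. Levels are not compared between genes, because each assay has its own efficiency. The panel holds no gene whose presence defines jejunal or ileal epithelium, so the tissue labels could not be checked against such markers. The tissue field of the labels names the other tissue for the 6 jejunal PGR samples and the 6 ileal healthy samples, whose titles were followed.

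Several features of the measurements bear on every value that follows. The β-actin reading behind each level, recovered from the Ct and the deposited level, fell into 3 sets of genes in the jejunum and 4 in the ileum, and each set had readings of its own. In the set that includes Nrf2, the β-actin Ct of the PGR pigs was 13.52, 13.52, 12.78, 13.15, 13.54 and 13.2 cycles in the jejunal samples of pigs 1 to 6 and 12.87, 13, 12.85, 13.01, 12.55 and 12.41 cycles in their ileal samples. It was higher in the jejunal sample of 5 of 6 pigs, by 0.505 ± 0.400 cycles (SD, n = 6; two-sided exact sign-flip permutation test, p = 0.0625), where the smallest p that 6 pigs allow is 0.03125. A higher jejunal β-actin Ct raises the jejunal level of each gene set against it. In the set that includes IGF-1 the difference was 0.193 ± 0.359 cycles (SD, n = 6; exact sign-flip p = 0.219), and in the set of GLP-1R alone 0.529 ± 0.509 cycles (SD, n = 5; exact sign-flip p = 0.125). IL-1β and IL-8 stood apart: in the ileum they were set against β-actin readings used for no other gene, and the jejunal minus ileal difference of their β-actin Ct was −1.41 ± 0.731 cycles (SD, n = 6), negative in 6 of 6 pigs (exact sign-flip p = 0.03125). Each tissue was read against its own β-actin readings, so tissue and reading cannot be told apart.

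Of the 150 levels in each tissue, 17 jejunal and 19 ileal ones were left blank in the deposited table, and 117 of 150 gene and pig pairs had both. Of the 35 blank levels that could be recomputed from the Ct, 26 were the highest of their gene among the pigs of that tissue and 5 the lowest, so leaving them blank narrows the spread between pigs. Pig 3 had 13 blank levels, 9 of them ileal, and pig 1 had 12, 9 of them jejunal. Pig 3 also stood apart in the levels that remained. Over the genes called higher in the jejunal mucosa its median within-pig difference was 0.24, against 1.39 to 2.90 in the other pigs, but blanks make these different genes in each pig. In raw Ct, where all 11 such genes enter for every pig, the median was 0.47 in pig 3 and 0.98 to 2.64 in the others, and pig 3 had the smallest difference in 5 of the 11. Over all genes pig 3 stood less apart, with a median of 0.14 against 0.36 in the next pig, and in raw Ct its 0.38 lay within the −0.02 to 1.21 of the others.

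Across the 25 genes, limma on the within-pig differences called 13 at an adjusted p under 0.05, 11 higher in the jejunal mucosa (44% of the genes tested) and 2 higher in the ileal mucosa (8%). The median difference over all 25 genes was 0.77. The jejunal group held genes of growth hormone and insulin reception, gut hormones, serotonin transport and reception, the antioxidant enzymes HO-1 and NQO1, and the mTOR pathway, and the ileal group was IL-6 and IL-10. In 14 genes every pig with both values differed in the same direction, and in 9 genes the jejunal and ileal levels did not overlap, against 6 genes once blank levels were filled from the Ct. Without pig 3 there were 15 calls, 12 toward the jejunum and 3 toward the ileum, and the 13 genes were all among them. The number fell to 8 without pig 2, to 7 without pig 5 and to 4 without pig 6. The exact sign-flip permutation test called 0 genes after adjustment and 1 gene, 5-HT4R, at an unadjusted p under 0.05, and with these numbers of pairs its smallest possible adjusted p is 0.0977. For a single gene the smallest exact p is 0.03125 with 6 pairs, 0.0625 with 5, 0.125 with 4 and 0.25 with 3.

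The smaller differences moved with the reference. With raw Ct and no reference gene the median over the 25 genes was 0.27, a shift of −0.49, and limma called 11 genes, 9 toward the jejunum and 2 toward the ileum. When the 25 target genes' own mean Ct served as the reference, the median was −0.49, a shift of −1.26, and the split was 6 toward the jejunum and 11 toward the ileum. That scale makes the differences of the 25 genes average 0 by construction, so genes below the panel's mean difference must turn toward the ileum, and it shows only which genes lie above or below that mean. GHRL, SERT, CCK, HO-1, GHR and NQO1 were higher in the jejunal and IL-6 and IL-10 higher in the ileal mucosa on the deposited and raw Ct scales, with limma's call on each except for IL-6 with raw Ct (adjusted p = 0.0552). With the mean Ct the jejunal genes among them lay above and IL-6 and IL-10 below the panel's mean, all with a call. For IL-6 and IL-10 that side was fixed in advance, since their raw Ct differences were below 0 and the panel's mean above it. INSR, GLP-1R, mTOR and 4EBP1 lay below the panel's mean and so were negative with the mean Ct, and 5-HT4R lay above it without a call.

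**Figure D1:**
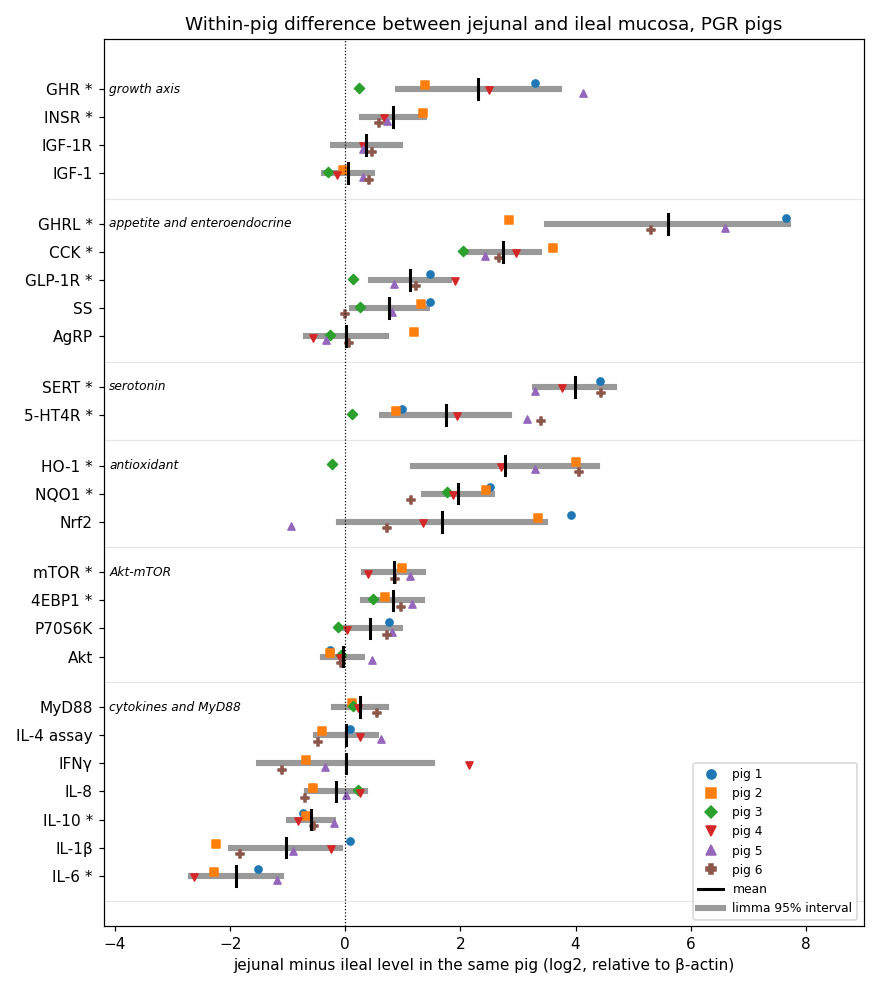
Jejunal minus ileal level (log2, relative to β-actin) of 25 genes in PGR pigs, with 1 symbol per pig, the mean as a black bar and limma's 95% interval in grey; an asterisk marks an adjusted p under 0.05. GHRL (mean 5.60) and SERT (3.98) lie farthest to the right and IL-6 (−1.90) farthest to the left, and pig 3 lies at or near the left end of most rows of jejunal genes in which it has a value.

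**Figure D2:**
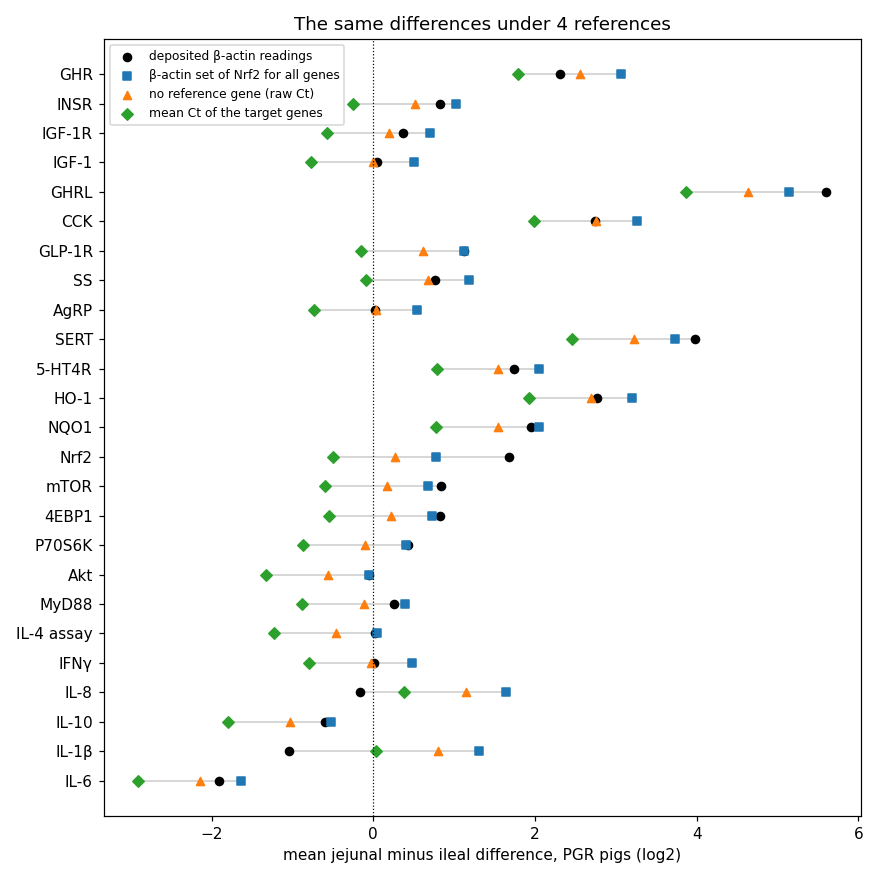
Mean jejunal minus ileal difference (log2) of each gene in PGR pigs under 4 references: the deposited β-actin readings, the β-actin set of Nrf2, no reference gene, and the average Ct over the 25 genes. IL-1β and IL-8 lie below 0 with the deposited readings and above 0 with the others, while GHRL, SERT, CCK, HO-1, GHR, 5-HT4R and NQO1 lie above 0 with all 4.

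In the growth axis, 2 of 4 genes were called, both higher in the jejunal mucosa, a share close to the 44% of all genes, and the median difference was 0.60 against 0.77 over all genes. GHR encodes the growth hormone receptor, through which growth hormone drives IGF-1 production. Pigs 1 to 6 had jejunal levels of 0.381, 0.201, 0.0751, 0.359, 0.377 and 0.327, and its ileal level was 0.0389, 0.0767, 0.0635, 0.0635 and 0.0215 in pigs 1 to 5, with pig 6 blank. The jejunal level of pig 3 was the lowest and fell just under the ileal level of pig 2, so the groups overlapped by that animal. GHR was 4.96-fold higher in the jejunal mucosa (log2 difference 2.31 ± 1.54, SD, n = 5), in 5 of 5 pigs (limma adjusted p = 0.0190). Without pig 3 the fold was 7.10 (limma adjusted p = 0.00384, n = 4), and without pig 5 the call was lost (1.85, limma adjusted p = 0.0528). Pig 6 had no GHR pair, and without it the difference was the same and the adjusted p was 0.0548.

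INSR encodes the insulin receptor, which also binds insulin-like growth factors in hybrid with IGF-1R. The jejunal levels were 2.99, 1.09, 1.87, 1.81 and 1.82 in pigs 2 to 6, with pig 1 blank. The ileal levels were 0.939, 1.17, 1.18, 1.10 and 1.22 in pigs 1, 2, 4, 5 and 6, with pig 3 blank. The deposited ileal values kept within a narrow band, and the low jejunal value of pig 3 fell inside it, but the blank ileal level of pig 3 came to 1.94 when filled, above that band. INSR was 1.78-fold higher in the jejunal mucosa (log2 difference 0.83 ± 0.36, SD, n = 4), in 4 of 4 pigs (limma adjusted p = 0.0207). With blank levels filled from the Ct the difference was 0.71 ± 0.89 (SD, n = 6; limma adjusted p = 0.123), with pig 3 in the opposite direction. Filled and without pig 3, which was chosen after seeing the data, it was 1.02 (n = 5, limma adjusted p = 0.0102), and with raw Ct of all pigs 0.52 (limma adjusted p = 0.114). The call was also lost without pig 2, 4, 5 or 6, with adjusted p up to 0.0643.

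IGF-1R, the receptor of IGF-1, had a deposited level in both tissues of only 3 pigs, although its Ct was read in all. Its jejunal level was 1.91, 2.75, 2.15 and 2.97 in pigs 3 to 6, and its ileal level was 1.96, 2.21, 2.21, 1.74 and 2.15 in pigs 1, 2, 4, 5 and 6. The groups overlapped, although the jejunal sample was the higher one in each of the 3 pairs, by 0.36 ± 0.09 (log2, SD, n = 3; limma adjusted p = 0.221). With blanks filled it was the higher one in 5 of 6 pigs, by 0.39 ± 0.53 (SD, n = 6; limma adjusted p = 0.207), and pig 3 differed by −0.54. Filled and without pig 3, a setting chosen after seeing the data, IGF-1R was called higher in the jejunal mucosa (0.57, limma adjusted p = 0.0416, n = 5), as it was with the β-actin set of Nrf2 for all genes (0.70, limma adjusted p = 0.0351, n = 6), and with the mean Ct it was −0.57, called in the ileal direction (limma adjusted p = 0.0112). IGF-1, the growth factor itself, showed no called difference as deposited: its level ran from 0.878 to 1.64 in jejunal and from 1.08 to 1.82 in ileal samples, and the log2 difference was 0.05 (limma 95% interval −0.37 to 0.46, n = 5, adjusted p = 0.904). With the mean Ct the IGF-1 difference was −0.77, called in the ileal direction (limma adjusted p = 0.00500).

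In the group of appetite and enteroendocrine genes, 3 of 5 were called, all higher in the jejunal mucosa (44% over all genes), and the median difference was 1.12. GHRL encodes ghrelin, the hunger hormone made mainly in the stomach and in smaller amounts in the upper intestine. GHRL in the jejunal samples was at 0.656, 0.0639, 0.200, 0.726, 0.243 and 0.178 in pigs 1 to 6, and the ileal level was 0.00325, 0.00893, 0.00251 and 0.00447 in pigs 1, 2, 5 and 6. Every jejunal value lay above every ileal one, and pig 2 had the lowest jejunal and the highest ileal level. GHRL was 48.6-fold higher in the jejunal mucosa (log2 difference 5.60 ± 2.08, SD, n = 4), in 4 of 4 pigs (limma adjusted p = 0.00608). The 4 ileal readings behind that fold had a Ct of 31.39, 30.07, 31.78 and 30.99, near the highest Ct in the data, so its size is uncertain, and the log2 difference was 4.92 without pig 1 and 6.52 without pig 2. The blank ileal readings of pigs 3 and 4 were earlier, at 27.69 and 27.95, and their levels came to 0.0395 and 0.0382 when filled, which gave a difference of 4.83 (n = 6, limma adjusted p = 0.00236). Without pig 6 the adjusted p was 0.0548.

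CCK encodes cholecystokinin, released by endocrine cells of the upper intestine in response to fat and protein, which slows gastric emptying and triggers bile and pancreatic secretion. The jejunal level was 21.5, 7.03, 16.4, 11.2 and 13.4 in pigs 2 to 6, with pig 1 blank, and the ileal level was 1.72, 1.76, 1.71, 2.09, 2.08 and 2.11 in pigs 1 to 6. The ileal levels were nearly equal in all 6 pigs while the jejunal ones spread widely, with pig 3 the lowest, and the groups did not overlap. CCK was 6.70-fold higher in the jejunal mucosa (log2 difference 2.74 ± 0.59, SD, n = 5), in 5 of 5 pigs (limma adjusted p = 0.000426). Leaving out any single pig kept the difference between 2.53 and 2.92, and with raw Ct it was 2.76 in 6 of 6 pigs (exact sign-flip p = 0.03125).

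GLP-1R encodes the receptor of glucagon-like peptide 1, an ileal and colonic hormone that promotes insulin release and satiety. Jejunal samples of pigs 1 to 6 had 0.508, 0.446, 0.216, 0.398, 0.266 and 0.311, and the ileal level was 0.183, 0.196, 0.106, 0.149 and 0.133 in pigs 1, 3, 4, 5 and 6, with pig 2 blank. The groups did not overlap, and pig 3, with the lowest jejunal and the highest ileal level, came nearest to closing the gap. The receptor was 2.17-fold higher in the jejunal mucosa (log2 difference 1.12 ± 0.67, SD, n = 5), in 5 of 5 pigs (limma adjusted p = 0.0190). This gene had β-actin readings used for no other gene, and with raw Ct the difference was 0.61, in 5 of 6 pigs (exact sign-flip p = 0.0625), without a call by limma (adjusted p = 0.0651). Without pig 5 or pig 6 the call was lost as well, with adjusted p up to 0.0600.

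SS encodes somatostatin, the inhibitory peptide of D cells and enteric neurons. Its jejunal level was 29.0, 24.1, 13.1, 16.5, 17.5 and 10.7 in pigs 1 to 6, and its ileal level was 10.5, 9.71, 11.1, 9.96 and 10.8 in pigs 1, 2, 3, 5 and 6. The deposited ileal levels hardly varied, and only the jejunal level of pig 6 reached down into them, but the blank ileal level of pig 4 came to 6.28 when filled, below all others. The difference of 0.77 ± 0.65 (log2, SD, n = 5) was positive in 4 of 5 pigs and missed the threshold (limma adjusted p = 0.0519). It passed without pig 3 (0.90, limma adjusted p = 0.0472, n = 4), with blanks filled (0.87, limma adjusted p = 0.0312, n = 6) and with raw Ct (0.68, limma adjusted p = 0.0345). It also passed with the β-actin set of Nrf2 for all genes (1.18, limma adjusted p = 0.00357) and without pairing (0.75, limma adjusted p = 0.0194). The set of IGF-1 is that of SS itself, so its result for SS (0.87, limma adjusted p = 0.0324) repeats the filled one. With the mean Ct the difference was −0.088. AgRP, known as an appetite-raising peptide of the hypothalamus, was also near the highest Ct, the only gene with a mean Ct above 30 over the PGR samples. Its level was 0.00251 to 0.00654 in jejunal and 0.00286 to 0.00514 in ileal samples, and its log2 difference was 0.02 (limma 95% interval −0.67 to 0.71, n = 5, adjusted p = 0.987).

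CCK, GHRL and SS are the enteroendocrine markers of the panel, and 2 of these 3 were called, against 44% of all genes. Whether a larger number of endocrine cells in the jejunal scrapings goes with these values was not tested.

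Both serotonin genes were called higher in the jejunal mucosa (44% over all genes), with a median difference of 2.86. SERT (SLC6A4) encodes the transporter by which enterocytes take serotonin back up after its release. Jejunal SERT was 1.80, 0.380, 1.45, 1.64 and 2.12 in pigs 1, 3, 4, 5 and 6, and ileal SERT was 0.0840, 0.163, 0.107, 0.167 and 0.0973 in pigs 1, 2, 4, 5 and 6. Pig 3 had the lowest jejunal level by a wide margin, yet it still lay above every ileal level. SERT was 15.8-fold higher in the jejunal mucosa (log2 difference 3.98 ± 0.56, SD, n = 4), in 4 of 4 pigs (limma adjusted p = 0.000426). Pig 3 did not enter that value, because its ileal level was blank, and when filled that level was 0.329, the highest of the ileal samples. With all 6 pigs filled the difference was 3.42 ± 1.64 (SD, n = 6; limma adjusted p = 0.00359), and pig 3 contributed 0.21, against 3.30 to 4.44 in the others.

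5-HT4R (HTR4) encodes a serotonin receptor that promotes peristalsis and secretion, and it was 1 of 2 genes with a level in every PGR sample. The jejunal level was 0.569, 0.707, 0.447, 0.778, 0.526 and 0.850 in pigs 1 to 6, and the ileal level was 0.288, 0.384, 0.413, 0.203, 0.0592 and 0.0809. The jejunal levels were alike and the ileal ones were not: pigs 5 and 6 had low ileal levels, and pig 3 was almost the same in both tissues. The receptor was 3.35-fold higher in the jejunal mucosa (log2 difference 1.74 ± 1.32, SD, n = 6), in 6 of 6 pigs without overlap of the groups (limma adjusted p = 0.0190; exact sign-flip p = 0.03125). Without pig 3 the fold was 4.19 (limma adjusted p = 0.00649). The call was lost without pig 5 or pig 6, with 0.0600 as the highest adjusted p.

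**Figure D3:**
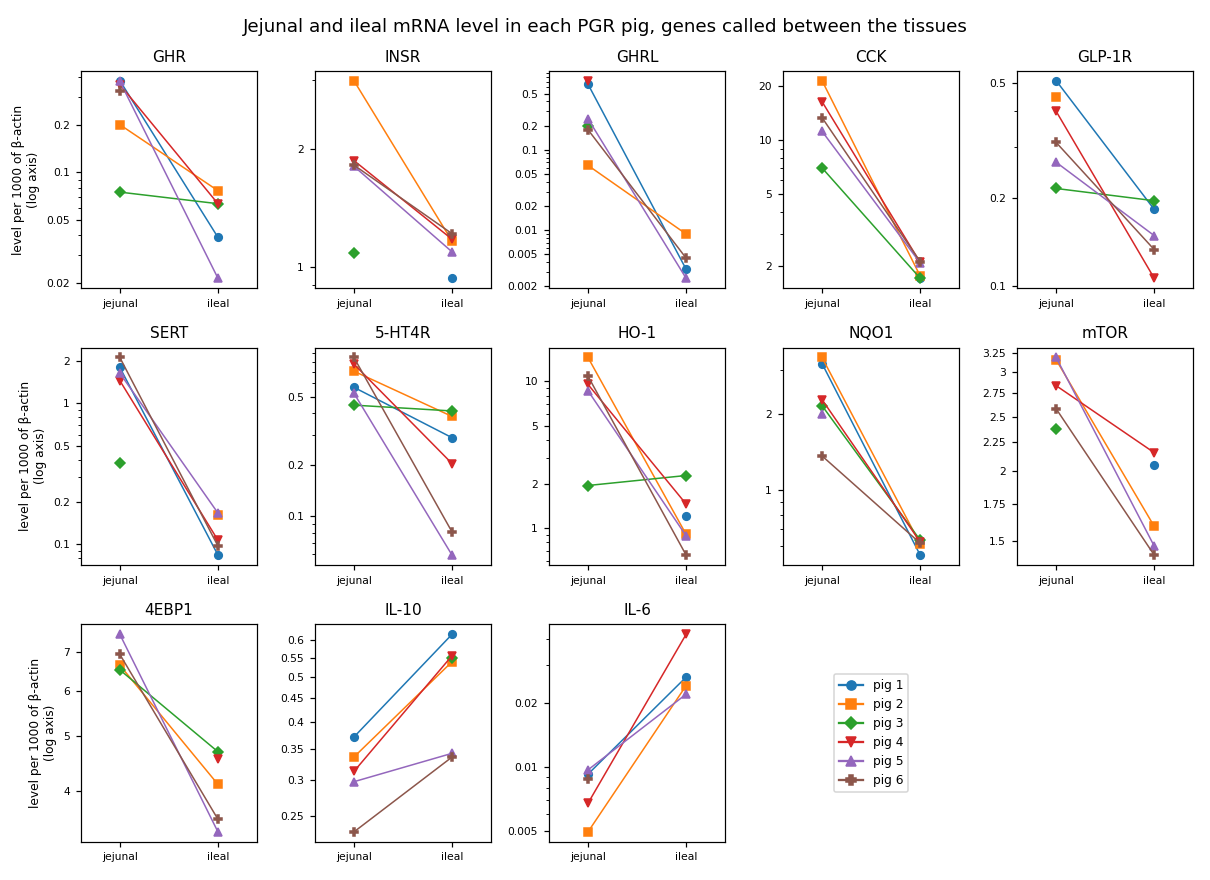
Level per 1000 of β-actin (log axis) in the jejunal and ileal mucosa of each PGR pig for the 13 genes with a limma adjusted p under 0.05; lines join the samples of 1 pig, and a symbol without a line has no partner because that level was left blank. The lines fall from left to right in 11 genes, except that of pig 3 in HO-1, and rise in IL-10 and IL-6, and pig 3 runs nearly level in GHR, 5-HT4R, GLP-1R and HO-1.

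Of the 3 antioxidant genes, 2 were called, both higher in the jejunal mucosa (44% over all genes), with a median difference of 1.95. NQO1 encodes a quinone reductase that is a classical target of the transcription factor Nrf2. Jejunal NQO1 was 3.17, 3.35, 2.16, 2.29, 2.00 and 1.37 in pigs 1 to 6, and ileal NQO1 was 0.554, 0.614, 0.635, 0.625 and 0.618 in pigs 1, 2, 3, 4 and 6. All jejunal samples, that of pig 3 included, stood above the ileal samples, which were close together as deposited, while the blank ileal level of pig 5 came to 0.350 when filled, below the others. NQO1 was 3.86-fold higher in the jejunal mucosa (log2 difference 1.95 ± 0.56, SD, n = 5), in 5 of 5 pigs (limma adjusted p = 0.00159). Leaving out any single pig kept the difference between 1.81 and 2.15.

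HO-1 (HMOX1) encodes heme oxygenase 1, which degrades heme and is another Nrf2 target. The jejunal level was 14.6, 1.95, 9.55, 8.65 and 10.9 in pigs 2 to 6, with pig 1 blank, and the ileal level was 1.21, 0.907, 2.29, 1.46, 0.886 and 0.655 in pigs 1 to 6. Pig 3 alone made the groups overlap, with a jejunal level far under those of the others and the highest ileal level. HO-1 was 6.80-fold higher in the jejunal mucosa (log2 difference 2.77 ± 1.76, SD, n = 5), in 4 of 5 pigs (limma adjusted p = 0.0190). Without pig 3 the fold was 11.4 (limma adjusted p = 0.000344, n = 4), and the call was lost without pig 2, pig 5 or pig 6, with adjusted p up to 0.0623.

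Nrf2 (NFE2L2), the transcription factor that switches on both enzymes, had a standard deviation of 1.89 on the log2 scale between jejunal samples and, as deposited, 0.51 between ileal samples, or 1.07 with the blank of pig 3 filled. The jejunal level ran from 0.115 in pig 3 to 3.35 in pig 1, and the ileal level from 0.213 to 0.483. The log2 difference was 1.68 ± 1.98 (SD, n = 5), positive in 4 of 5 pigs and not called (limma adjusted p = 0.0958). It was 1.12 without pig 1 and 2.33 without pig 5, where it passed the threshold (limma adjusted p = 0.0485). The ileal level of pig 3 was blank, and when filled it was 1.52, which made its own difference −3.72 and the mean 0.78 (n = 6, limma adjusted p = 0.539). Nrf2 was thus uneven among the PGR pigs, and its relation to NQO1 or HO-1 across pigs was not tested.

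In the Akt-mTOR pathway, which couples nutrients and insulin signals to protein synthesis, 2 of 4 genes were called higher in the jejunal mucosa (44% over all genes), with small folds and a median difference of 0.63. The kinase mTOR had jejunal levels of 3.16, 2.38, 2.84, 3.19 and 2.58 in pigs 2 to 6 and ileal levels of 2.05, 1.59, 2.16, 1.47 and 1.42 in pigs 1, 2, 4, 5 and 6. The deposited groups did not overlap, but the blank ileal level of pig 3 came to 2.73 when filled, above its jejunal level, so that the groups then overlapped and pig 3 differed by −0.20. The level was 1.79-fold higher in the jejunal mucosa (log2 difference 0.84 ± 0.31, SD, n = 4), in 4 of 4 pigs (limma adjusted p = 0.0190), and with blanks filled the difference was 0.68 ± 0.49 (SD, n = 6), in 5 of 6 pigs (limma adjusted p = 0.0430).

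4EBP1 (EIF4EBP1) encodes the repressor of translation that mTOR phosphorylates. In the jejunal samples it was 6.65, 6.52, 7.53 and 6.94 in pigs 2, 3, 5 and 6, and in the ileal samples 4.11, 4.69, 4.56, 3.39 and 3.57 in pigs 2 to 6. The deposited groups were apart and pig 3 lay with the rest, but with the blank levels filled the groups overlapped. Those levels came to 11.7 in the jejunal and 5.34 in the ileal sample of pig 1, and to 4.35 in the jejunal sample of pig 4. The level was 1.77-fold higher in the jejunal mucosa (log2 difference 0.82 ± 0.30, SD, n = 4), in 4 of 4 pigs (limma adjusted p = 0.0190), and with blanks filled the difference was 0.72 ± 0.47 (SD, n = 6), in 5 of 6 pigs (limma adjusted p = 0.0312). The calls of mTOR and 4EBP1 were lost without pig 2, pig 5 or pig 6, with adjusted p up to 0.0643. For both genes the difference was smaller without β-actin: with raw Ct it was 0.17 for mTOR and 0.22 for 4EBP1, without a call (limma adjusted p = 0.296 and 0.239), and with the mean Ct as reference it was −0.60 and −0.55, called in the ileal direction (limma adjusted p = 0.00896 and 0.0292). The β-actin set of IGF-1, used for all genes, also removed both calls, at 0.36 (limma adjusted p = 0.223) and 0.41 (limma adjusted p = 0.174).

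P70S6K (RPS6KB1) encodes the S6 kinase, the other well-known substrate of mTOR. Its jejunal level was 6.75, 5.83, 3.99, 4.51, 5.36 and 4.75 in pigs 1 to 6, and its ileal level was 4.01, 4.36, 4.44, 3.06 and 2.89 in pigs 1, 3, 4, 5 and 6. Pigs 3 and 4 had much the same level in both tissues, the groups overlapped, and the difference of 0.43 ± 0.45 (log2, SD, n = 5) was not called (limma adjusted p = 0.122). Without pairing P70S6K was called toward the jejunum (0.47, limma adjusted p = 0.0428). With the mean Ct it was called in the ileal direction (−0.87, limma adjusted p = 0.00194). Akt, the kinase upstream of mTOR, ran from 6.57 to 11.7 in jejunal and from 7.87 to 12.0 in ileal samples. Its difference was −0.05 (limma 95% interval −0.39 to 0.29, n = 6, adjusted p = 0.887), whereas with raw Ct it was −0.55, lower in the jejunal sample of 6 of 6 pigs (exact sign-flip p = 0.03125) and called in the ileal direction by limma (adjusted p = 0.0345), as it was with the mean Ct (−1.32, limma adjusted p = 0.00194).

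As deposited, the cytokine genes with MyD88 were the only group with calls in the ileal direction, 2 of 7 (8% over all genes) with a median difference of −0.16. IL-6 encodes a cytokine of the acute phase response that also acts on B cells and epithelial repair. Its jejunal level was 0.00926, 0.00496, 0.00677, 0.00970 and 0.00880 in pigs 1, 2, 4, 5 and 6, and its ileal level was 0.0264, 0.0241, 0.0420 and 0.0220 in pigs 1, 2, 4 and 5. The ileal levels all lay above the jejunal ones. IL-6 was 3.74-fold higher in the ileal mucosa (log2 difference −1.90 ± 0.67, SD, n = 4), in 4 of 4 pigs (limma adjusted p = 0.00748). The jejunal Ct in these 4 pigs was 30.24, 31.14, 30.32 and 30.2, as late as the ileal GHRL readings, so the size of this fold is uncertain too. Both IL-6 levels of pig 3 were blank, and when filled they were 0.473 in its jejunal and 0.153 in its ileal sample, so that the jejunal level was far above those of the other pigs and the direction was opposite. The blank ileal level of pig 6 came to 0.128, also above the deposited ileal levels, and its difference to −3.86, the largest toward the ileum. With all blanks filled the difference was −1.64 ± 1.86 (SD, n = 6; limma adjusted p = 0.0768), and without pig 3, a setting chosen after seeing the data, it was −2.29 (n = 5, limma adjusted p = 0.00224).

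IL-10 encodes the anti-inflammatory cytokine of regulatory T cells and macrophages. Jejunal IL-10 was 0.371, 0.336, 0.313, 0.297 and 0.232 in pigs 1, 2, 4, 5 and 6, and ileal IL-10 was 0.618, 0.539, 0.551, 0.556, 0.342 and 0.336 in pigs 1 to 6. Pigs 5 and 6 had the lowest ileal levels, which fell within the jejunal range. Each pig nevertheless had more in its own ileal sample, and IL-10 was 1.51-fold higher in the ileal mucosa (log2 difference −0.60 ± 0.24, SD, n = 5), in 5 of 5 pigs (limma adjusted p = 0.0190). With raw Ct the difference was −1.03, in 6 of 6 pigs (exact sign-flip p = 0.03125), and the call was lost without pig 1, 2, 4 or 6, with adjusted p up to 0.0766.

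IL-1β, a product of activated macrophages, had another direction with other β-actin readings. The jejunal level was 0.106, 0.0370, 0.0717, 0.0434 and 0.0964 in pigs 1, 2, 4, 5 and 6, and the ileal level was 0.101, 0.176, 0.545, 0.0855, 0.0819 and 0.344 in pigs 1 to 6. The groups overlapped, with pigs 3 and 6 high in the ileum. The difference of −1.04 ± 1.00 (log2, SD, n = 5) was toward the ileum in 4 of 5 pigs and not called (limma adjusted p = 0.0598). It was called without pig 1 (−1.31, limma adjusted p = 0.0397) and without pig 3 (−1.04, limma adjusted p = 0.0489), whose pair was already blank. It was also called without pairing (−1.375, limma adjusted p = 0.0383). Filled and without pig 3, a setting chosen after seeing the data, IL-1β was called as well (−1.04, limma adjusted p = 0.0447). The blank jejunal level of pig 3 came to 1.53 when filled, far above the other jejunal samples, and the difference was then −0.62 (n = 6, limma adjusted p = 0.343). On the same 6 pigs the difference with the β-actin readings of Nrf2 was 1.30, toward the jejunum (limma adjusted p = 0.0197), and with raw Ct it was 0.80 (limma adjusted p = 0.206).

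IL-8 (CXCL8), which attracts neutrophils, shares the ileal β-actin readings of IL-1β: its difference was −0.16 as deposited (n = 5, limma adjusted p = 0.593), −0.27 with blanks filled (n = 6, limma adjusted p = 0.343), 1.65 with the readings of Nrf2 (n = 6, limma adjusted p = 0.00214) and 1.14 with raw Ct (n = 6, limma adjusted p = 0.0249). The regional direction of either gene and its β-actin reading cannot be told apart. IFNγ, the cytokine of T helper 1 and natural killer cells, differed by 0.00 with a wide interval (limma 95% interval −1.50 to 1.51, n = 4, adjusted p = 0.995), and its jejunal level ran from 0.808 to 4.28, with pigs 3 and 4 high. IFNγ was higher in the ileal sample of 3 of 4 pigs, while pig 4 differed by 2.145 toward the jejunum. Without pig 4 the difference was −0.71, without a call (limma adjusted p = 0.0907). The assay named IL-4 is annotated in the deposited table as the interleukin 4 receptor (IL4R), and its difference was 0.02 (limma 95% interval −0.50 to 0.54, n = 5, adjusted p = 0.987). MyD88, the adaptor that carries Toll-like receptor signals, was higher in the jejunal sample of 4 of 4 pigs by 0.25, without a call (limma 95% interval −0.20 to 0.71, adjusted p = 0.280). Among the immune cell markers of the panel, IFNγ, IL-10, IL-8 and IL-1β, 1 of 4 was called, in the ileal direction (8% over all genes), and the part of lymphoid tissue in the ileal scrapings was not tested.

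The regional difference was then set against that of the healthy pigs, measured the same way. All 13 genes called in PGR pigs had a healthy mean difference of the same sign. So did every gene without a call except AgRP (0.020 in PGR and −0.0125 in healthy pigs) and IFNγ (0.0038 and −0.19). The shared sign therefore does not set the called genes apart. In healthy pigs GHRL differed by 6.59 (n = 3), HO-1 by 4.56 (n = 5), CCK by 3.43 (n = 3), GHR by 3.38 (n = 5), SERT by 2.54 (n = 5) and NQO1 by 1.93 (n = 3), and IL-6 differed by −1.70 (n = 5) and IL-10 by −0.66 (n = 5). The test of the difference between PGR and healthy pigs called 0 of 25 genes by limma (0%), with 2 at an unadjusted p under 0.05, and the exact permutation test likewise gave 0 after adjustment and 2 before it. Those 2 were SERT and Akt in the exact test. The SERT difference was larger in PGR pigs by 1.44 (limma 95% interval 0.62 to 2.27, adjusted p = 0.0800; exact permutation p = 0.0238). It passed the threshold without PGR pig 5 (1.67, limma adjusted p = 0.0461) or without healthy pig 6 (1.70, limma adjusted p = 0.00982). Akt was −0.05 in PGR against −0.53 in healthy pigs, 0.48 apart (limma 95% interval 0.02 to 0.93, adjusted p = 0.515; exact permutation p = 0.0108). These tests take the growth groups as independent, and the labels do not say whether pigs of the same number are litter mates. With the pig number as a block across growth groups, limma called 0 of 24 genes, with 3 at an unadjusted p under 0.05 and a lowest adjusted p of 0.167; the 3 were Nrf2 at −1.50 (adjusted p = 0.167, 5 blocks), SERT at 1.50 (adjusted p = 0.167, 3 blocks) and HO-1 at −1.17 (adjusted p = 0.246, 4 blocks), and Akt was 0.48 (adjusted p = 0.955, 5 blocks). With blank levels filled, the lowest limma adjusted p over the 25 genes was 0.983. For SERT the filling brought in PGR pigs 2 and 3 and also healthy pig 5. The jejunal SERT level of healthy pig 5 came to 1.33, against 0.0498 in its ileal sample. For HO-1 the PGR minus healthy value was −1.80 (log2; limma 95% interval −3.80 to 0.20, adjusted p = 0.584), and for Nrf2 it was −1.40 (limma 95% interval −3.26 to 0.45, adjusted p = 0.584). With 3 to 6 pairs a group, the intervals allow differences in either direction for most genes.

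Among the PGR pigs the regional difference was not even. Of the genes with both levels, the jejunal level was the higher in 11 of 14 in pig 1, 13 of 21 in pig 2, 9 of 14 in pig 3, 16 of 22 in pig 4, 17 of 23 in pig 5 and 16 of 23 in pig 6. Blanks make these different genes in each pig, and the order of the pigs moved with the reference. As deposited the median difference was 1.225, 0.88, 0.14, 0.36, 0.72 and 0.58 in pigs 1 to 6. In raw Ct it was 0.49, 0.48, 0.38, 1.21, −0.02 and 0.35. The jejunal samples varied more than the ileal ones in 15 of 25 genes, with a median standard deviation of 0.47 against 0.32 on the log2 scale, and in 17 of 25 genes, with 0.53 against 0.37, once blank levels were filled. For CCK the standard deviation was 0.61 among jejunal and 0.15 among ileal samples, and no ileal CCK level was blank. For SS it was 0.53 and 0.078 as deposited, and the ileal value was 0.30 with the blank filled. For NQO1 it was 0.47 and 0.078, and the ileal value was 0.33 with the blank filled. In 5-HT4R the order was the other way, with 0.36 among jejunal and 1.18 among ileal samples. All these levels carry the spread of their β-actin reading. In the set that includes IGF-1, the standard deviation of the β-actin Ct was 0.39 cycles among jejunal and 0.083 among ileal samples. It was 0.40 and 0.15 in the set of GLP-1R alone, and 0.30 and 0.25 in that of Nrf2. The readings behind IL-1β and IL-8 spread more in the ileum, by 0.68 against 0.30 in the jejunum. How much of the wider jejunal spread came from β-actin was not tested. In raw Ct the jejunal readings of SS had no wider range than the ileal ones, 18.99 to 19.79 against 19.56 to 20.59. For CCK and NQO1 the jejunal range was the wider one in raw Ct. It was 19.09 to 19.98 against 22.09 to 22.44 for CCK, and 21.64 to 22.71 against 23.07 to 24.03 for NQO1.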

How the data were processed

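Expression was analysed in 12 PGR samples, with 12 healthy samples for comparison. The authors averaged triplicate wells and deposited the Ct of each gene in cycles, which is not normalized, and a ratio to β-actin (2 to the power of minus ΔCt) in which some values are blank; no rule for the blanks, efficiency correction or rule for the separate β-actin readings is stated. A deposited fold table was not used. Ratios were multiplied by 1000 for printing and analysed as log2. The β-actin Ct was recovered as Ct plus log2 of the ratio, and readings within 0.01 cycles were taken as 1 set. Ct values have no counting depth, and errors are standard deviations between pigs.

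Within-pig differences were tested two-sided with limma 3.58.1 (R 4.3.3), with Benjamini-Hochberg adjustment over 25 genes, and single values with exact sign-flip permutation over pigs. Pairing follows the pig number in the titles, since each animal gave both tissues. The deviations of same-numbered samples from their group means correlated across genes at −0.58 to −0.15 in PGR pigs as deposited and at −0.51 to 0.44 with blanks filled. Their mean was −0.34 as deposited and −0.050 filled, against 0.067 and 0.026 for samples of different number. In healthy pigs the range as deposited was −0.27 to 0.43, with a mean of 0.16 against −0.046. In PGR pigs, samples of the same number thus tended to deviate in opposite directions as deposited, and shared almost no deviation on average with blanks filled. The pairing of these pigs rests on the titles. The procedures were first tested on simulated data.

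Each sample's value is printed for genes called by limma with the same sign in all pairs, and for the other gene of lowest limma p in each role group; the rest are given by range and counts. The choice of that gene was made after its values were seen, and the members and lists were chosen with earlier results of these data known. Alternatives were the exact test, no block for the pig, linear levels, raw Ct, the mean Ct or a single β-actin set as reference, filled blanks, a filter on mean Ct above 30 and leaving out each pig. Names of 25 of 26 genes matched RefSeq (Sscrofa11.1). Figures were drawn with Python 3.11.15, pandas 2.3.3 and matplotlib 3.10.9.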

Additional observations from a re-analysis of the deposited data

Results flagged for a closer look

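In 4 of 78 groups of 4 to 6 PGR values a sample lay far from the others, and chance alone would mark about 1 in 20 groups. Jejunal SERT in pig 3 was 0.380 per 1000 of β-actin, against 1.45 to 2.12 in the other pigs, and jejunal HO-1 in pig 3 was 1.95, against 8.65 to 14.6. In both groups a high level was left blank, SERT of pig 2 at 3.35 and HO-1 of pig 1 at 49.5 when filled, and with these in place pig 3 was no longer marked. Ileal NQO1 in pig 1 was 0.554, against 0.614 to 0.635, a small distance in a narrow group from which the lower level of pig 5, 0.350 when filled, was left blank; with it in place pig 5 is the one marked. The jejunal minus ileal difference of Akt in pig 5 was 0.47 (log2), against −0.27 to −0.07 in the other pigs. The cause was not tested for any of them.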

How the results depend on the processing

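The count of 13 genes called between the tissues rests on limma, which shares the spread over genes. The exact sign-flip test called 0 genes in total, 0 in each direction, and so did the same test on linear levels or with blank levels filled (the last chosen after seeing the data), where 8 genes had an unadjusted p under 0.05. Without the pig as a block (no pairing), limma called 16 genes, 13 with more mRNA in the jejunum and 3 with more in the ileum, and the 13 genes called with the block were all among them. SS, IL-1β and P70S6K were gained. Leaving out each pig in turn gave 4 to 15 calls, 3 to 12 of them higher in the jejunal and 1 to 3 higher in the ileal mucosa. CCK, SERT, NQO1 and IL-6 kept their call without each pig. Leaving out a pig with no pair could not move the difference. Such were pig 1 for CCK, pigs 2 and 3 for SERT, pig 5 for NQO1, and pigs 3 and 6 for IL-6. Pig 3 thus never entered for SERT or IL-6, where its filled differences were 0.21 and 1.63. With blanks filled limma called 11 genes toward the jejunum and 1 toward the ileum, INSR and IL-6 being lost and SS gained. The β-actin set of Nrf2 gave 15 and 1, with IL-6 lost and IGF-1R, SS, IL-1β and IL-8 gained, and that of IGF-1 gave 10 and 1, with INSR, IL-6, mTOR and 4EBP1 lost and SS and IL-8 gained. The mean Ct as reference, which makes the differences average 0, gave 6 genes higher in the jejunal mucosa and 11 higher in the ileal. The Ct-based references have no blank levels, so they change the pigs as well as the reference. IL-6 already had the readings of Nrf2, and INSR and SS those of IGF-1. Under these sets their differences were therefore the same as with blanks filled (−1.64, 0.71 and 0.87), and only the filling changed them.

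The direction of some genes changed, all differences being log2. With raw Ct the values were −0.0022 for IGF-1, 0.80 for IL-1β, −0.46 for the IL-4 assay, 1.14 for IL-8, −0.03 for IFNγ, −0.12 for MyD88 and −0.10 for P70S6K. With the mean Ct they were −0.77 for IGF-1, −0.57 for IGF-1R, −0.73 for AgRP, −0.088 for SS, −0.25 for INSR, −0.15 for GLP-1R, 0.030 for IL-1β, −1.23 for the IL-4 assay, 0.38 for IL-8, −0.80 for IFNγ, −0.88 for MyD88, −0.49 for Nrf2, −0.60 for mTOR, −0.55 for 4EBP1 and −0.87 for P70S6K. Among these, limma called IGF-1, IGF-1R, mTOR, 4EBP1 and P70S6K in the ileal direction. It also called AgRP (limma adjusted p = 0.0292), the IL-4 assay (limma adjusted p = 0.00497) and MyD88 (limma adjusted p = 0.00286) in that direction. The β-actin set of Nrf2 gave 1.30 for IL-1β and 1.65 for IL-8, and that of IGF-1 gave 0.99 for IL-1β, 1.33 for IL-8 and −0.27 for the IL-4 assay. Without single pigs the range was −0.27 to 0.16 for AgRP, −0.13 to 0.14 for the IL-4 assay, −0.71 to 0.37 for IFNγ and −0.043 to 0.13 for IGF-1. IFNγ was −0.39 with blanks filled and without pig 3, a setting chosen after seeing the data. The cause was not tested beyond the exchange of the reference itself.

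The count of genes whose regional difference differed between PGR and healthy pigs was 0 to 1 without single pigs, the 1 gene being SERT without PGR pig 5 or healthy pig 6. It was 0 with the exact permutation test. By limma it was 0 with the pig number as a block, with blanks filled, with raw Ct and with the mean Ct. The remaining alternatives were not run for this count. The β-actin Ct difference of the set of Nrf2 was 0.407 to 0.619 without single pigs, and it was 0.193 with the set of IGF-1; the set of IL-1β and IL-8 had the opposite sign, −1.41.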
